A study of Homo sapiens with 66 samples.

Results

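Transcript counts were compared in carfilzomib-resistant L363 cells given NCP26 or solvent for 6 h. L363 is an established human multiple myeloma cell line, and the subline used, named CFZr L363 in the sample labels and L363-CFZr below, is resistant to the proteasome inhibitor carfilzomib. The series as a whole profiled L363-CFZr and AMO1, another human myeloma cell line, after inhibitors of prolyl-tRNA synthetase (ProRS), carfilzomib (AMO1 only) or solvent, as 66 poly(A) RNA-seq libraries in 22 groups of 3. The comparison uses the 3 libraries treated with 1 µM NCP26 and the 3 libraries treated with dimethyl sulfoxide (DMSO, the solvent), both for 6 h, which is 6 of the 66 libraries. Of the 20167 genes in the deposited count table, 10701 passed a filter on low counts and were tested, and none was chosen for its response. Further groups served as references for how the 6 h response compares: L363-CFZr with 1 µM NCP22 for 6 h, L363-CFZr with DMSO or 1 µM NCP26 for 24 h, and AMO1, with no resistance label, with DMSO or 1 µM NCP26 for 6 h.

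Parental L363 cells were not analysed here. How the resistant subline was derived, and whether it is 1 clone, is not given in the sources used here. The study's general statement is that experiments used biological triplicates unless it says otherwise, and its RNA-seq methods say only triplicate. Nothing in the labels says that the 3 replicates of a group came from separate cultures. The p-values measure the spread between these libraries, which may be technical.

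ProRS, one of the activities of the protein encoded by EPRS1, joins proline to its tRNA. NCP26 competes with ATP for the synthetase. When a synthetase is blocked, uncharged tRNA accumulates and activates the kinase GCN2 (EIF2AK4), which phosphorylates the initiation factor eIF2α. General translation then falls while the transcription factor ATF4 is translated more, and ATF4 with its partners DDIT3, ATF3 and the C/EBP proteins drives genes for amino acid synthesis, amino acid import and tRNA charging. This is the amino acid response, a branch of the integrated stress response (ISR). Myeloma cells are malignant plasma cells that make large amounts of secreted protein.

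The 6 libraries held between 3030772 and 5414856 counts and between 12641 and 14152 detected genes. Plasma cell markers were present in each of them (SDC1 between 2854 and 4546 counts, JCHAIN between 14951 and 21725 counts), whereas 16 of the 17 markers of other cell types gave between 0 and 9 counts per library, with CD3D, CD3E, NKG7 and HBB at 0 throughout. The exception was CD4, at 591 to 1041 counts per library, so that the 17 markers summed to 597 to 1055 counts with DMSO and 855 to 930 counts with NCP26. NCP26 replicate 2 stood apart from the others of its group. Across genes the deviation of its log2 CPM from the mean of the 6 libraries correlated with transcript length at r = -0.44, against 0.23 and 0.43 in NCP26 replicates 1 and 3, and ribosomal protein mRNAs took 14.4% of its counts against 10.2% to 12.2% elsewhere. GC content also moved with the groups. The log2 fold change correlated with a gene's GC content at r = -0.37 across genes, the median GC content being 41.9% in genes called higher, 57.0% in genes called lower and 47.95% in all genes tested. The part of either trend in the results was not tested, but the list counts were repeated without NCP26 replicate 2 and with a correction for GC content. Values that moved by more than 1.5 times are given with the list or together after the last list.

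NCP26 changed the level of 2012 of the 10701 genes tested (18.8%) at an adjusted p under 0.05 (quasi-likelihood F-test of edgeR, p-values adjusted by the Benjamini-Hochberg method, n = 3 against 3), 1050 higher (9.81%) and 962 lower (8.99%) than with DMSO. The median size of the change among called genes was 0.60 on the log2 scale. Larger changes lay mostly on the higher side, with 219 genes up and 53 down by at least 2-fold and 44 up and 0 down by at least 4-fold. In 4150 genes (38.8%) the values of the 2 groups did not overlap, NCP26 lying above DMSO in 2092 (19.5%) and below it in 2058 (19.2%). Of the 2012 called genes 2000 did not overlap, so that absence of overlap adds little to a call. The count of calls depended on single libraries, being 753, 888 and 1283 when DMSO replicate 3, 1 and 2 were left out in turn and 1155 and 3961 when NCP26 replicate 1 and 2 were, and fell to 1340 with the correction for GC content, of which 1066 were among the 2012. With 3 libraries a side, the smallest p that an exact two-sided permutation test of a single gene can give is 0.1, so that single-gene tests rest on the spread shared across genes. Levels are CPM, counts scaled to library size, and 3 values in a row belong to replicates 1, 2 and 3. Fold changes are log2 of NCP26 over DMSO, and a single value in brackets after a gene is its log2 fold change. Positions are from GENCODE v44 on GRCh38.

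**Figure D1:**
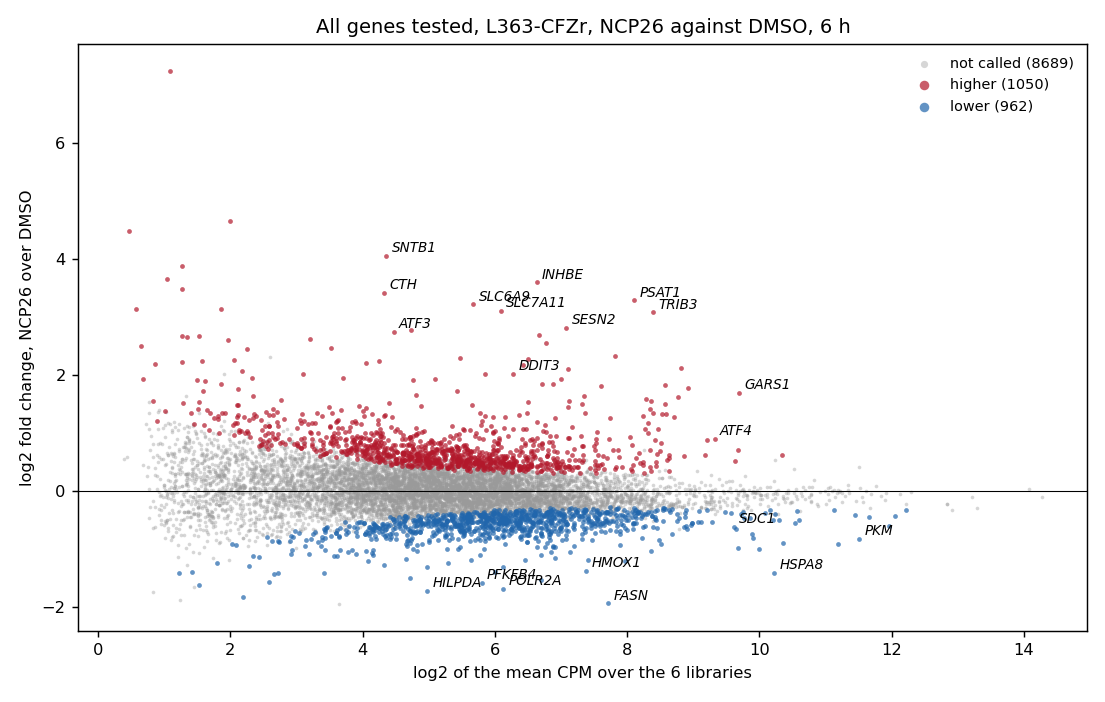
Log2 fold change of NCP26 against DMSO (y axis) against mean level (x axis, log2 CPM) for the 10701 genes tested, 1 point per gene. The 1050 genes called higher (red) reach further from 0 than the 962 called lower (blue), and the 8689 genes not called are grey.

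The 12 genes with the largest rise, among called genes at 5 CPM or more whose groups did not overlap, were SNTB1, INHBE, CTH, PSAT1, SLC6A9, SLC7A11, TRIB3, SESN2, CHAC1, ATF3, NIBAN1 and GAS7. SNTB1, which encodes the scaffold protein β1-syntrophin, stood at 1.94, 3.02 and 2.08 CPM with DMSO and 35.8, 37.7 and 42.7 CPM with NCP26 (log2 fold change 4.06, SE 0.21, adjusted p = 1.17e-06). It was at most 3.02 CPM in any DMSO library and at least 35.8 CPM in any NCP26 library. NIBAN1, whose protein is linked to stress and apoptosis, stood at 28.4, 32.5 and 22.1 CPM with DMSO and 188, 129.7 and 212 CPM with NCP26 (log2 fold change 2.69, SE 0.20, adjusted p = 1.22e-05), and GAS7, named for growth arrest, at 2.26, 2.35 and 2.92 CPM with DMSO and 14.9, 12.1 and 20.6 CPM with NCP26 (log2 fold change 2.62, SE 0.29, adjusted p = 0.000253). Absence of overlap was a condition of this choice and is no further support for these genes. Most of the other genes of this group belong to the ISR, amino acid synthesis or amino acid transport and are described with those groups.

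The 12 largest falls by the same rule were those of FASN, HILPDA, POLR2A, PFKFB4, CXCR3, MAP1A, TNFRSF8, VWA1, LY6G5B, HSPA8, CTNND1 and LPCAT1. POLR2A (chr17:7484366-7514616), which encodes the largest subunit of RNA polymerase II, stood at 108, 99.5 and 112 CPM with DMSO and 37.6, 19.9 and 41.8 CPM with NCP26 (log2 fold change -1.68, SE 0.21, adjusted p = 0.000561). NCP26 replicate 2 was the lowest of its group. The same held for FASN and for MAP1A, the latter at 59.8, 37.43 and 67.1 CPM with NCP26 on a scale set over all groups used. On that scale L363-CFZr libraries with DMSO for 24 h also differed widely. POLR2A stood there at 110.5, 226.1 and 117.5 CPM and MAP1A at 111.9, 281.9 and 133.2 CPM, but PFKFB4 at 319.6, 349.4 and 296.1 CPM. CXCR3, a chemokine receptor, fell by 1.56 on the log2 scale, MAP1A, a microtubule-binding protein, by 1.54, and TNFRSF8, the receptor CD30, by 1.501. VWA1, an extracellular matrix protein, fell by 1.42, CTNND1, the catenin p120, by 1.403, LPCAT1, an enzyme of phosphatidylcholine remodelling, by 1.398, and LY6G5B by 1.42. The LY6G5B value is uncertain, because 67.8% of the 31-base words of its GENCODE transcripts also occur in those of other genes. Its call was lost without DMSO replicate 1, 2 or 3 or NCP26 replicate 3, with an adjusted p of up to 0.101.

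The core of the ISR rose. Of its 28 genes 26 were tested, and 18 were called higher and 1 lower, against 9.81% and 8.99% of all genes, with a median log2 fold change of 1.198 against 0.013 over all genes tested. This list and those below were chosen with earlier results of these data known. INHBE (ENSG00000139269, chr12:57452323-57459280), a secreted activin subunit, stood at 10.97, 17.8 and 16.2 CPM with DMSO and 195, 182 and 174 CPM with NCP26 (log2 fold change 3.602, SE 0.15, adjusted p = 2.91e-07). The lowest NCP26 library was far above the highest DMSO library. TRIB3 (ENSG00000101255, chr20:362835-397559), a pseudokinase that is a target of ATF4 and DDIT3, stood at 71.01, 68.7 and 72.3 CPM with DMSO and 575, 679.9 and 547 CPM with NCP26 (log2 fold change 3.08, SE 0.12, adjusted p = 1.64e-07). SESN2, a leucine sensor that restrains the growth kinase complex mTORC1, stood at 36.1, 28.8 and 35.4 CPM with DMSO and 245, 219 and 247 CPM with NCP26 (log2 fold change 2.82, SE 0.12, adjusted p = 2.91e-07). In both genes the replicates of a group lay close together compared with the distance between groups.

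The transcription factors of the response rose with it. ATF4 itself stood at 440.2, 443 and 461 CPM with DMSO and 793, 990.3 and 726 CPM with NCP26 (log2 fold change 0.90, SE 0.12, adjusted p = 0.00106). ATF3 stood at 5.49, 6.37 and 5.41 CPM with DMSO and 39.99, 35.2 and 40.6 CPM with NCP26 (log2 fold change 2.75, SE 0.16, adjusted p = 2.03e-06) and DDIT3, which encodes CHOP, at 30.7, 32.2 and 29.6 CPM with DMSO and 126, 139.7 and 108 CPM with NCP26 (log2 fold change 2.02, SE 0.13, adjusted p = 3.66e-06). No NCP26 library of these 3 genes fell within the DMSO range. CEBPB (log2 fold change 2.29) and CEBPG (1.85), the C/EBP partners of ATF4, were called higher, whereas ATF5 was not (-0.17, SE 0.12, adjusted p = 0.353). CHAC1, which degrades glutathione, rose from 8.71, 4.02 and 7.29 CPM to 41.8, 52.3 and 45.03 CPM (log2 fold change 2.77). EIF4EBP1, which encodes the translation repressor 4E-BP1, rose from 47.8, 52.96 and 54.98 CPM to 198, 304 and 172 CPM (2.11), NCP26 replicate 2 being the highest library. Smaller rises were called for the secreted glycoprotein STC2 (1.84), the tRNA exporter XPOT (1.29) and the lipoprotein receptor VLDLR (1.103). GDF15, a secreted stress cytokine, gave 1, 0 and 0 counts with DMSO and 13, 14 and 15 counts with NCP26, and the bZIP repressor JDP2 gave 0, 2 and 1 counts against 16, 13 and 13, so that no fold is given for either.

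The sensors and brakes of the pathway were mixed. EIF2AK4 (GCN2) stood at 68.1, 73.7 and 71.6 CPM with DMSO and 80.4, 61.5 and 85.8 CPM with NCP26 and was not called (log2 fold change 0.09, SE 0.13, adjusted p = 0.663), nor were the other eIF2α kinases EIF2AK1 (0.04), EIF2AK2 (0.17) and EIF2AK3 (-0.27, adjusted p = 0.143). GCN1, which GCN2 needs for activation, was the member called lower, at 316, 293 and 309 CPM with DMSO and 218, 148 and 226 CPM with NCP26 (log2 fold change -0.64, SE 0.15, adjusted p = 0.0134). IMPACT, which competes with GCN2 for GCN1, rose (0.87). PPP1R15A and PPP1R15B, which lead phosphatase 1 to eIF2α, rose by 0.79 and 0.47. DDIT4, an mTORC1 inhibitor, was not called (log2 fold change 0.17, adjusted p = 0.277), and neither was EIF2S1, the gene of eIF2α. EIF2AK2 was called higher without NCP26 replicate 2 (adjusted p = 0.0192), and EIF2AK3 was called lower and DDIT4 higher with the GC correction (adjusted p = 0.029 and 0.0357). Leaving out single libraries ended the calls of GCN1 (DMSO replicate 1 or 3, adjusted p up to 0.0663), of JDP2 (DMSO replicate 3, adjusted p up to 0.063), and of PPP1R15B (DMSO replicate 1, 2 or 3 or NCP26 replicate 1 or 3, adjusted p up to 0.0874). Correction for GC content ended those of GCN1 (adjusted p = 0.068).

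**Figure D2:**
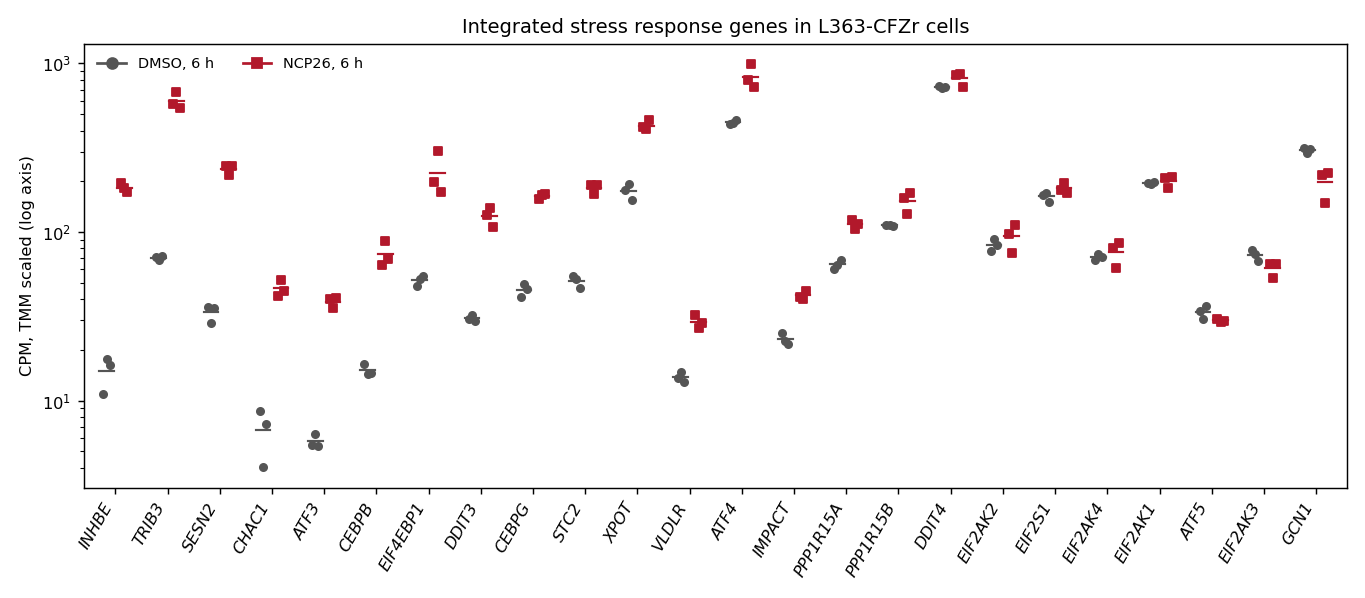
Level in CPM (log axis) of 24 of the 26 ISR core genes tested in the 3 DMSO and the 3 NCP26 libraries of L363-CFZr at 6 h, 1 point per library with a line at each group mean. The 2 groups stand apart most for INHBE, TRIB3, SESN2, CHAC1 and ATF3, and overlap for EIF2AK4 and EIF2AK1.

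ATF4 binds DNA with C/EBP partners at a composite site, the C/EBP-ATF response element. Its core was searched as TGATGNAA, where N is any base, and as TTNCATCA for the other strand, in the 250 bases before a RefSeq start (GRCh38.p14). For each gene only the first start listed was used, so a match before any other start would be missed. Among tested genes with a promoter in the table, 20 of 847 called higher (2.36%), 5 of 783 called lower (0.639%) and 82 of 7057 not called (1.16%) held the core, as did 3.14% of all 35116 promoters in the table. The last share includes promoters of genes that were not tested and takes every promoter listed, not only the first of each gene. In the ISR core list 23 of 26 genes had a promoter and 3 held it (ATF3, CHAC1 and PPP1R15B). Of the 44 genes raised at least 4-fold only 30 had a promoter, and 6 of these held the core, against 107 of 8687 tested genes (1.23%). It was held by 3 of 134 called genes raised 2- to 4-fold and by 11 of 683 raised less. The first set is small, and the difference was not tested. The promoters below were picked from those that held the core, so they are not typical of the responders. Their genes are a transcription factor, a glutathione-degrading enzyme, a biosynthetic enzyme and a pro-apoptotic gene. Other responders held no match in this window, among them TRIB3, SESN2, PSAT1, CTH, SLC6A9, DDIT3 and ATF4. Each runs 5′ to 3′ on the strand of the gene, with the matched core in capitals. A match describes the letters and does not show that a factor bound there.

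ATF3 (chr1:212565157-212565406, + strand): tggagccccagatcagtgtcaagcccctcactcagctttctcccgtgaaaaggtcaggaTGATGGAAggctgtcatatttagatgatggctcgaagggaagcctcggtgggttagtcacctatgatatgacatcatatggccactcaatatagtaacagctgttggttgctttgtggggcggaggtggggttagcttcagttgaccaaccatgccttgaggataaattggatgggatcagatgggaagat
CHAC1 (chr15:40953221-40953470, + strand): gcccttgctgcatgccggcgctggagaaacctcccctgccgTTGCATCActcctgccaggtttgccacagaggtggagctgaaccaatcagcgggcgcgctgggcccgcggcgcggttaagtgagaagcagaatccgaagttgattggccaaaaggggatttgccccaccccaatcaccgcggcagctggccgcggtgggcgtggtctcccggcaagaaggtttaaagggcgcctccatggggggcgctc
ASNS (chr7:97872409-97872658, - strand): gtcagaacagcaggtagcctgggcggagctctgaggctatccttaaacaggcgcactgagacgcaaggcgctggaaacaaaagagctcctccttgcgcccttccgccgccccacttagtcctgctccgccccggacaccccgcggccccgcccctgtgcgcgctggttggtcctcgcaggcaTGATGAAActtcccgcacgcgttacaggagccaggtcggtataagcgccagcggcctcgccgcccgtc
HRK (chr12:116881442-116881691, - strand): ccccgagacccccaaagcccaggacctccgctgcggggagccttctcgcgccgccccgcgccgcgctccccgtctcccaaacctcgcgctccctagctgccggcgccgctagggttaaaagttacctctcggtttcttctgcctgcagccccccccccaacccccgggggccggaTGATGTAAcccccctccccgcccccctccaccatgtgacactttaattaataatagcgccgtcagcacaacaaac

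The core began 191 bases before the start in ATF3, 68 in ASNS and 75 in HRK, all in the orientation given first, and 209 bases before it in CHAC1 in the other orientation. It was also present before BCAT1 (48 bases), AARS1 (187 bases), PPP1R15B (227 bases) and TSC2 (110 bases), of which the first 3 were called higher and TSC2 lower. The promoters of the amino acid transporters and proline genes that were in the table held no match, which says only that these letters are not in this window.

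Enzymes that make amino acids rose as a group, with 14 of 20 tested genes called higher and 1 lower and a median log2 fold change of 1.12. Without NCP26 replicate 2, 3 were lower. The 3 enzymes of the serine pathway rose. PSAT1 (ENSG00000135069, chr9:78297125-78330093), the phosphoserine aminotransferase, stood at 53.3, 48.9 and 51.02 CPM with DMSO and 469.5, 515 and 518 CPM with NCP26 (log2 fold change 3.29, SE 0.11, adjusted p = 5.06e-08), which placed every NCP26 library well above the DMSO range. Its neighbours in the pathway, PHGDH (1.81), which makes the entry step from a glycolytic intermediate, and PSPH (2.29), which makes the last, also rose. CTH, which makes cysteine from cystathionine, stood at 2.58, 4.36 and 3.33 CPM with DMSO and 36.1, 40.04 and 33.9 CPM with NCP26 (log2 fold change 3.42, SE 0.20, adjusted p = 1.84e-06), and CBS, the preceding enzyme, rose by 1.11. ASNS, asparagine synthetase, went from 71.7, 70.4 and 83.1 CPM to 358, 415 and 359 CPM (log2 fold change 2.33, SE 0.11, adjusted p = 1.00e-06). GPT2, an alanine aminotransferase of mitochondria, rose by 2.17. In mitochondrial folate metabolism ALDH1L2 (1.94), MTHFD2 (1.82) and SHMT2 (1.07) rose, whereas the cytosolic MTHFD1 fell by 0.37. BCAT1, a branched-chain aminotransferase, gave 1, 2 and 0 counts with DMSO and 35, 34 and 53 with NCP26. The call of MTHFD1 was lost without DMSO replicate 1, 2 or 3 or NCP26 replicate 1, with an adjusted p of up to 0.0773.

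Amino acid transporters had 10 of 14 tested genes called higher and 2 lower, with a median of 1.34. SLC6A9, a glycine importer, stood at 11.6, 11.1 and 7.71 CPM with DMSO and 89.5, 81.6 and 105 CPM with NCP26 (log2 fold change 3.22, SE 0.17, adjusted p = 1.27e-06). SLC7A11, which imports cystine in exchange for glutamate, stood at 12.6, 16.4 and 13.7 CPM with DMSO and 124, 91.0 and 151 CPM with NCP26 (log2 fold change 3.103, SE 0.20, adjusted p = 4.72e-06). The highest DMSO library of SLC7A11 was at 16.4 CPM and the lowest NCP26 library, replicate 2, at 91.0 CPM. Both chains of a large neutral amino acid exchanger rose, SLC7A5 by 1.59 and SLC3A2 by 1.5, as did the glutamine carrier SLC1A5 (1.77), the neutral carrier SLC43A1 (1.91) and the cationic carrier SLC7A1 (1.501). SLC7A6 fell by 0.53 and SLC38A5 by 0.32. The 2 falls rested on single libraries, the calls being lost for SLC7A6 (DMSO replicate 1, 2 or 3 or NCP26 replicate 1, adjusted p up to 0.0921) and for SLC38A5 (DMSO replicate 1, 2 or 3 or NCP26 replicate 1 or 3, adjusted p up to 0.144). With the GC correction the call was lost for SLC38A5 (adjusted p = 0.271).

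Cytosolic aminoacyl-tRNA synthetases, the enzymes that charge tRNA, had 15 of 24 genes called higher and 2 lower, with a median of 0.53. GARS1, for glycine, stood at 393, 377 and 396 CPM with DMSO and 1275, 1258 and 1248 CPM with NCP26 (log2 fold change 1.698, SE 0.10, adjusted p = 1.61e-06), with the 3 NCP26 libraries nearly level. WARS1 (1.64), CARS1 (1.55), TARS1 (1.34) and AARS1 (1.28), for tryptophan, cysteine, threonine and alanine, followed. FARSA, a phenylalanine synthetase subunit, fell by 0.55 and VARS1, for valine, by 0.30. The mitochondrial synthetases did not share the rise, with 0 of 17 called higher and 3 lower, AARS2 (-0.64), VARS2 (-0.50) and MARS2 (-0.41), and a median of -0.14. Those called made up 17.6% of this list, against 18.8% of all genes tested. The number lower was 0 without DMSO replicate 1 or 3 and 1 without NCP26 replicate 1 or with the GC correction, and that of lower cytosolic synthetases was 4 without NCP26 replicate 2. Calls were lost on leaving out single libraries for VARS1 and MARS2 (DMSO replicate 1, 2 or 3 or NCP26 replicate 1 or 3, adjusted p up to 0.172 and 0.213), for AARS2 (DMSO replicate 1 or 3, adjusted p up to 0.0601), and for VARS2 (DMSO replicate 1 or 3 or NCP26 replicate 1, adjusted p up to 0.121). The GC correction left uncalled VARS1, AARS2, VARS2 and MARS2 (adjusted p = 0.546, 0.0784, 0.126 and 0.06).

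EPRS1 (ENSG00000136628, chr1:219968600-220046530), which encodes the synthetase that NCP26 inhibits, was among the genes called higher. It stood at 459.9, 474 and 441 CPM with DMSO and 693, 623 and 793 CPM with NCP26 (log2 fold change 0.62, SE 0.11, adjusted p = 0.00415), and the lowest NCP26 library was above the highest DMSO library. Of the 12 genes of proline synthesis and use that were tested, EPRS1 and PYCR1 were called, both higher, and 0 were called lower (median -0.23). PYCR1, which makes proline from its direct precursor in mitochondria, stood at 156, 137 and 149.9 CPM with DMSO and 233, 234 and 220 CPM with NCP26 (log2 fold change 0.63, SE 0.10, adjusted p = 0.00177). Other enzymes had values below 0 that did not pass the test, ALDH18A1 (-0.22, adjusted p = 0.168), OAT (-0.31, adjusted p = 0.0569) and PYCR3 (-0.26, adjusted p = 0.41) on the proline-making side, ALDH4A1 (-0.44) on the degrading side, and the collagen prolyl hydroxylases P4HA1 (-0.09) and P4HA2 (-0.25). Without NCP26 replicate 2, 5 of the 12 were called lower, among them OAT, ALDH18A1 and PYCR3 (adjusted p = 0.00583, 0.0357 and 0.04), and with the GC correction 1, OAT (adjusted p = 0.0102).

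Calls among genes of the machinery of translation depended on the libraries used. None of 78 cytosolic ribosomal protein genes was called (median log2 fold change -0.032, edgeR), with 1, RPS15, at an unadjusted p under 0.05 and called lower by DESeq2, and without NCP26 replicate 2, the library in which they took 14.4% of counts, 71 of the 78 were called lower (median -0.27). Among 24 translation factors 20.8% were called, against 18.8% of all genes tested. EIF2S2, a subunit of eIF2, rose by 1.07 and EIF1, which guards start codon choice, by 0.71, whereas the scaffold EIF4G1 fell by 0.75, EIF3B by 0.60 and EIF5A, which helps ribosomes through proline runs, by 0.38, with 5 factors lower without NCP26 replicate 2. Of 31 ribosome biogenesis factors 29% were called. In this list 2 were called higher, NOP58 (0.50) and DDX21 (0.43), and 7 fell, among them POLR1A, the largest subunit of RNA polymerase I, by 0.81, and NOP2, an rRNA methyltransferase, by 0.69. On leaving out single libraries the number called lower was 2 without DMSO replicate 1, 2 or 3, 3 without NCP26 replicate 1 and 14 without NCP26 replicate 2. The 2 rises were not called without DMSO replicate 1 or 3. Single libraries ended the calls of EIF5A and DDX21 (DMSO replicate 1, 2 or 3 or NCP26 replicate 1 or 3, adjusted p up to 0.165 and 0.21), of NOP58 (DMSO replicate 1 or 3, adjusted p up to 0.0573), and of POLR1A (DMSO replicate 1, 2 or 3, adjusted p up to 0.0718). The GC correction ended those of EIF5A, NOP58 and DDX21 (adjusted p = 0.195, 0.0818 and 0.145). The mRNAs of the mitochondrial genome had 1 of 13 called, MT-CYB (-0.44), a call lost without any 1 DMSO library or NCP26 replicate 1 (adjusted p up to 0.0864), and 11 of 13 were lower without NCP26 replicate 2 and 4 with the GC correction. They made up 7.09% to 7.52% of counts with DMSO and 6.54% to 6.69% with NCP26.

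Heat shock genes were lower. Of 20 tested genes 12 were called lower and 0 higher, with a median of -0.52. HSPA8 (ENSG00000109971, chr11:123057489-123063230), the constitutive Hsp70, stood at 1734, 1689 and 1798 CPM with DMSO and 673, 645 and 650.2 CPM with NCP26 (log2 fold change -1.41, SE 0.10, adjusted p = 7.02e-06). The 3 NCP26 libraries lay within 645 to 673 CPM, below the DMSO range of 1689 to 1798 CPM. The Hsp70 co-chaperones DNAJA1 (-1.06) and DNAJB1 (-0.57) and the Hsp90 co-chaperone FKBP4 (-0.94) also fell. HSPA1A (-0.96) and HSPA1B (-0.52), the inducible Hsp70 genes, share 76.0% and 73.3% of their 31-base words with other genes and are near-identical copies, so that their separate values are uncertain. The call of HSPA1B was lost without DMSO replicate 3, with an adjusted p of 0.0582.

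The proteasome, the target of carfilzomib, had few genes called with all 6 libraries in the fit. Of 33 subunit genes PSMB9, an immunoproteasome subunit, was called higher (0.60) and 5 were called lower, PSMC3 (-0.49), PSMD2, PSMC4, PSMC2 and PSMC5, the median being -0.087. The share called, 18.2%, was near the 18.8% of all genes tested. Leaving out single libraries made the lower count 2 without DMSO replicate 1, 2 or 3 or without NCP26 replicate 1, 3 without NCP26 replicate 3 and 17 without NCP26 replicate 2. ER chaperones and genes of the unfolded protein response were split, with 5 of 26 higher and 6 lower. ERN1, which encodes the ER stress sensor IRE1α, rose by 1.02, as did SEL1L, HERPUD1, DNAJB9 and EDEM1, which serve ER-associated degradation, while the chaperones SDF2L1 (-0.54), CALR (-0.49) and HSPA5 (-0.32) fell. The count of rises was 2 without DMSO replicate 1 or 3 or without NCP26 replicate 1 and 3 with the GC correction, and that of falls 1 without DMSO replicate 1, 3 without DMSO replicate 2 or 3 or without NCP26 replicate 1 and 11 without NCP26 replicate 2. XBP1, whose mRNA IRE1α splices, was not called (0.02, adjusted p = 0.91). Calls that single libraries decided were those of PSMB9 (DMSO replicate 1, 2 or 3, adjusted p up to 0.148), of SDF2L1 (DMSO replicate 1, 2 or 3 or NCP26 replicate 1, adjusted p up to 0.0962), of CALR (DMSO replicate 1, adjusted p up to 0.0549), and of HSPA5 (DMSO replicate 1, 2 or 3 or NCP26 replicate 1 or 3, adjusted p up to 0.173). With GC content corrected for, the call was lost for SDF2L1 (adjusted p = 0.0923).

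Genes of hypoxia and glycolysis fell, with 14 of 21 tested called lower and 1 higher and a median of -0.43. HILPDA, a lipid droplet protein, stood at 50.7, 50.3 and 43.7 CPM with DMSO and 15.3, 16.9 and 11.7 CPM with NCP26 (log2 fold change -1.72, SE 0.16, adjusted p = 5.60e-05). PFKFB4 (-1.58) and PFKFB3 (-1.24), which set the level of a glycolysis activator, the peptide hormone ADM (-1.03), the glucose transporter SLC2A1 (-0.91) and the glycolytic enzymes PGK1 (-0.89) and PKM (-0.82) were lower as well. VEGFA, an angiogenic factor that is also an ATF4 target, was the member called higher (0.48). Without DMSO replicate 1 or 3 the falls numbered 9. Sterol and fatty acid synthesis had 9 of 24 genes called lower and 0 higher, the former being 4 without DMSO replicate 3. FASN (ENSG00000169710, chr17:82078338-82098294), fatty acid synthase, stood at 335, 313 and 346 CPM with DMSO and 94.7, 66.1 and 99.8 CPM with NCP26 (log2 fold change -1.93, SE 0.15, adjusted p = 1.28e-05), the largest fall among called genes at 5 CPM or more without overlap. INSIG1, a sterol sensor, fell by 0.91, ACLY, which makes cytosolic acetyl-CoA, by 0.50 and SREBF1, the transcription factor of lipid synthesis, by 0.34. HMGCS1, an early enzyme of sterol synthesis, was not called (-0.27, adjusted p = 0.135), but was called lower with the GC correction (adjusted p = 0.0118). Leaving out single libraries ended the calls of VEGFA (DMSO replicate 1, adjusted p up to 0.0541), of ACLY (DMSO replicate 1, 2 or 3, adjusted p up to 0.0712), and of SREBF1 (DMSO replicate 1, 2 or 3 or NCP26 replicate 1, adjusted p up to 0.141). Correction for GC content ended those of SREBF1 (adjusted p = 0.447).

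Targets of NRF2, the regulator of the oxidative stress response, did not move one way, with 4 of 16 called higher and 2 lower. HMOX1, haem oxygenase, stood at 218, 222 and 281 CPM with DMSO and 73.5, 116 and 90.2 CPM with NCP26 (log2 fold change -1.37, SE 0.16, adjusted p = 0.000392). It was the largest change in the list and a fall, the groups not overlapping. Ferritin heavy chain FTH1 (0.59), the factor's own gene NFE2L2 (0.55), the glutathione synthesis subunit GCLM (0.45) and the sulfiredoxin gene SRXN1 rose. The rises numbered 1 without DMSO replicate 1 or 2 and 2 without DMSO replicate 3 or without NCP26 replicate 1 or 3 or with the GC correction, and the falls 6 without NCP26 replicate 2. Without single libraries the call was lost for FTH1 (DMSO replicate 1 or 2, adjusted p up to 0.0888), and for GCLM (DMSO replicate 1, 2 or 3 or NCP26 replicate 1 or 3, adjusted p up to 0.13). After correction for GC content it was lost for NFE2L2 and GCLM (adjusted p = 0.0711 and 0.389).

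Genes of the BCL2 family and death receptors had 10 of 24 called higher and 1 lower, with a median of 0.33. Both arms of cell death were among the rises. PMAIP1, which encodes the BH3-only protein NOXA, stood at 6.46, 6.703 and 4.79 CPM with DMSO and 27.3, 28.4 and 25.5 CPM with NCP26 (log2 fold change 2.21, SE 0.18, adjusted p = 2.40e-05), and TNFRSF10B, the TRAIL receptor DR5, at 48.1, 48.6 and 42.9 CPM with DMSO and 136, 129 and 139 CPM with NCP26 (log2 fold change 1.54, SE 0.10, adjusted p = 6.99e-06). In either gene every NCP26 library was above the DMSO range. HRK, another BH3-only gene, stood at 1.61, 2.01 and 0.833 CPM with DMSO and 9.69, 3.83 and 6.91 CPM with NCP26 (log2 fold change 2.26), with NCP26 replicate 2 lowest of its group. BBC3, which encodes PUMA (1.33), the death receptor FAS (1.31), BMF (0.49) and the effector BAK1 (0.44) were also higher. So were genes that restrain death, BCL2 (0.71), CFLAR (0.67) and BIRC2 (0.46). BCL2L1, which encodes the survival protein BCL-XL, was the member called lower, at 68.1, 71.1 and 77.05 CPM with DMSO and 51.9, 49.05 and 48.9 CPM with NCP26 (log2 fold change -0.53, SE 0.11, adjusted p = 0.00722). MCL1, the survival protein on which many myeloma cells depend, was not called (log2 fold change 0.28, SE 0.10, adjusted p = 0.0751), nor was BCL2L11, which encodes BIM (0.06). The number called higher was 4 without DMSO replicate 3 and 6 without DMSO replicate 1, and 3 were lower without NCP26 replicate 2, where MCL1 was called higher (adjusted p = 0.00391). The calls that rested on single libraries were those of HRK and FAS (DMSO replicate 3, adjusted p up to 0.0685 and 0.0532), of BCL2 (DMSO replicate 1 or 3, adjusted p up to 0.0779), of BMF (DMSO replicate 1 or 3 or NCP26 replicate 1 or 3, adjusted p up to 0.1), and of BAK1 (DMSO replicate 1 or 3 or NCP26 replicate 1, adjusted p up to 0.114).

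Targets of p53 had 7 of 20 genes called higher (4 without DMSO replicate 3) and 1 lower. Of these TNFRSF10B, BBC3 and FAS are also in the death list, and TNFRSF10B and BBC3 are also known targets of ATF4 and DDIT3. CDKN1A, the cell cycle inhibitor p21, stood at 4.196, 7.71 and 6.04 CPM with DMSO and 12.7, 13.2 and 14.5 CPM with NCP26 (log2 fold change 1.17, SE 0.22, adjusted p = 0.00543), a low level in all 6 libraries. GADD45A rose by 1.45 and TP53I3 by 1.93, the latter on few counts, and RRM2B was also called. AEN, a nuclease, fell by 0.51, and MDM2, the inhibitor of p53, was not called (0.30, adjusted p = 0.126), although it was called higher without NCP26 replicate 2 (adjusted p = 0.0181). The calls lost without single libraries were those of TP53I3 (DMSO replicate 2 or 3 or NCP26 replicate 1, adjusted p up to 0.0929), and of AEN (DMSO replicate 1 or 2, adjusted p up to 0.108). The GC correction ended the call of AEN (adjusted p = 0.117).

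Of 31 genes of the G1/S transition 8 were called lower and 2 higher (median -0.31), and of 28 genes of G2/M 1 was lower and 2 higher (median 0.0029). MCM5 (-0.79), MCM10 (-0.60) and MCM2 (-0.55), which license and unwind DNA for replication, and RRM2 (-0.44), a ribonucleotide reductase subunit, were lower, whereas MCM6, of the same helicase, was higher (0.78), as was CDKN1A. In G2/M, HMMR (0.64) and CCNB2 (0.41) rose and BUB1 fell by 0.32. The mitotic kinases AURKA (-0.15, adjusted p = 0.459) and AURKB (0.03, adjusted p = 0.952) and the D-type cyclin CCND2 (0.07, adjusted p = 0.653) were not called, and CCND1 did not pass the filter on low counts. The lower count of G1/S genes was 3 without DMSO replicate 1 or 3 or without NCP26 replicate 1, 4 without DMSO replicate 2 and 16 without NCP26 replicate 2, and the G2/M counts were 4 higher and 5 lower without NCP26 replicate 2 and 0 higher and 3 lower with the GC correction (edgeR). Of 9 replication-dependent histone genes tested, H4C8 (1.17), H2AC6 (0.90) and H1-2 (0.55) rose. Most such mRNAs lack a poly(A) tail, which the library method selects for. Single libraries decided the calls of MCM10, RRM2 and H1-2 (DMSO replicate 1, 2 or 3 or NCP26 replicate 1, adjusted p up to 0.101, 0.0857 and 0.15), and of CCNB2 and BUB1 (DMSO replicate 1, 2 or 3 or NCP26 replicate 1 or 3, adjusted p up to 0.138 and 0.164). Under the GC correction the call was lost for CCNB2 (adjusted p = 0.116). The same held for HMMR (adjusted p = 0.0824).

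Genes that mark plasma cells or drive myeloma leaned lower, with 7 of 25 called lower and 2 higher and a median of -0.23. SDC1, which encodes the plasma cell antigen CD138, stood at 932, 957 and 947 CPM with DMSO and 624, 633 and 599 CPM with NCP26 (log2 fold change -0.61, SE 0.09, adjusted p = 0.00184). JCHAIN, the joining chain of secreted immunoglobulin, stood at 4848, 5011 and 4524 CPM with DMSO and 3046, 3482 and 2996 CPM with NCP26 (log2 fold change -0.59, SE 0.11, adjusted p = 0.00485), and PIM2, a survival kinase of myeloma, at 738, 749 and 734 CPM with DMSO and 513, 541 and 484 CPM with NCP26 (log2 fold change -0.53, SE 0.10, adjusted p = 0.00415). Replicates differed little in these genes and every NCP26 library was below the DMSO range. POU2AF1, a coactivator of B-lineage genes, stood at 153, 158 and 158 CPM with DMSO and 106, 93.1 and 104 CPM with NCP26 (log2 fold change -0.62, SE 0.10, adjusted p = 0.00199). TNFRSF17, which encodes the antigen BCMA, fell by 0.45, ITGB7 by 0.39 and the chemokine receptor CCR1 by 0.71, while CD38 (0.81) and the interleukin 6 receptor IL6R (0.72) rose. The central transcription factors were not called, MYC standing at 406, 358 and 375 CPM with DMSO and 319, 355 and 317 CPM with NCP26 (log2 fold change -0.20, SE 0.10, adjusted p = 0.179), with NCP26 replicate 2 just below the lowest DMSO library. Values were below 0 for IRF4 (-0.32, adjusted p = 0.0644), PRDM1 (-0.33, adjusted p = 0.0882) and TCF3 (-0.23, adjusted p = 0.124). In the plasma cell list 5 genes were called higher and 12 lower without NCP26 replicate 2, the latter including MYC, IRF4 and TCF3 (adjusted p = 0.0136, 0.0253 and 0.045). The 10 plasma cell markers used to check the label took 0.783% to 0.843% of counts with DMSO and 0.603% to 0.632% with NCP26. Leaving out single libraries ended the calls of TNFRSF17 (DMSO replicate 1, 2 or 3 or NCP26 replicate 1 or 3, adjusted p up to 0.141), of ITGB7 (DMSO replicate 1 or 3 or NCP26 replicate 1, adjusted p up to 0.103), and of IL6R (DMSO replicate 1 or 3 or NCP26 replicate 1 or 3, adjusted p up to 0.136). Correction for GC content ended those of ITGB7 (adjusted p = 0.171). In bulk libraries fewer cells of a kind and less RNA per cell cannot be told apart. Drug efflux pumps had 1 of 8 called (12.5%, against 18.8% of all genes tested), ABCA2 (-0.68). ABCB1, the pump P-glycoprotein, stood at 1703, 1810 and 1588 CPM with DMSO and 2021, 1576 and 2193 CPM with NCP26 and was not called (log2 fold change 0.18, SE 0.13, adjusted p = 0.36), but was called higher without NCP26 replicate 2 (adjusted p = 0.00273). The call of ABCA2 was lost without DMSO replicate 1, 2 or 3, with an adjusted p of up to 0.0814. It was also lost with the GC correction (adjusted p = 0.123).

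Interferon-stimulated genes had 7 of 17 called higher and 0 lower (median 0.35), with USP18 at 0.94, ISG20 at 0.93 and the transcription factor IRF1 at 0.78, and the number higher was 2 without DMSO replicate 1, 2 or 3, 3 without NCP26 replicate 1 and 4 without NCP26 replicate 3. Without NCP26 replicate 2, 3 were lower. Autophagy genes had 5 of 19 higher and 0 lower, WIPI1 (0.84), the receptors CALCOCO2 (0.83), OPTN and NBR1, and MAP1LC3B (0.82), which encodes the autophagosome protein LC3B, with 3 higher without DMSO replicate 1 or 3. Immediate early genes had 5 of 22 higher and 0 lower, NR4A2 (1.05), IER2, KLF10, DUSP5 and KLF6, and the number higher was 1 without DMSO replicate 1 or 3 or without NCP26 replicate 1 and 3 without DMSO replicate 2 or without NCP26 replicate 3. With NCP26 replicate 2 left out, 2 of the 22 were lower. In the NF-κB list 4 of 14 rose (2 without DMSO replicate 3), BCL3 (0.93), RELB (0.76), ICAM1 and NFKBIA, and RELA fell by 0.56. Of 24 genes of mTORC1 nutrient signalling 20.8% were called, near the 18.8% of all genes tested. SESN2, MIOS (0.53) and TFEB (0.44) were higher and NPRL2 (-0.55) and TSC2 (-0.51) lower. The higher count of the last was 1 without DMSO replicate 1 or 3 or without NCP26 replicate 1 or 3, and the lower count 0 without DMSO replicate 3 and 4 without NCP26 replicate 2. Leaving out single libraries ended the calls of ISG20, RELA and TSC2 (DMSO replicate 3, adjusted p up to 0.0611, 0.0585 and 0.0659), of IRF1 (DMSO replicate 1, 2 or 3 or NCP26 replicate 1, adjusted p up to 0.105), of NR4A2 and MIOS (DMSO replicate 1 or 3 or NCP26 replicate 1 or 3, adjusted p up to 0.182 and 0.122), of TFEB (DMSO replicate 1, 2 or 3 or NCP26 replicate 1 or 3, adjusted p up to 0.12), and of NPRL2 (DMSO replicate 1 or 3 or NCP26 replicate 3, adjusted p up to 0.0965). Correction for GC content ended those of RELA, MIOS and TSC2 (adjusted p = 0.0526, 0.131 and 0.1).

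Every list count given so far is to be read against all genes tested, of which 9.81% were called higher and 8.99% lower. A count near these shares does not set the members of a list apart. Because the lists were chosen with earlier results of these data known, a count far from these shares is no independent support either. The share called was also under the 18.8% of all genes for the proline list (16.7%), G2/M (10.7%) and the mitochondrial genome (7.69%). Further list counts moved with single settings. Without NCP26 replicate 2, 2 p53 targets, 2 efflux pumps, 1 histone gene and 1 autophagy gene were lower and 1 sterol and fatty acid gene was higher. The NRF2 list had 1 gene lower with the GC correction or without DMSO replicate 1 or 3, 1 heat shock gene was higher with the GC correction, and 2 mRNAs of the mitochondrial genome were lower without NCP26 replicate 3. Some counts also depended on the tool. DESeq2 called 1 immediate early gene, 4 interferon-stimulated genes, 2 NRF2 targets and 1 G2/M gene higher, 0 G2/M genes lower, 0 proteasome subunits higher and 3 lower, and 4 mRNAs of the mitochondrial genome lower. Where a list had 0 genes called in a direction by edgeR, DESeq2 also called 0 in that direction, with the exception of the ribosomal protein gene given. At an unadjusted p under 0.05 such a list held 3 genes lower among the proline genes, 1 higher among the heat shock genes, 1 higher in sterol and fatty acid synthesis, 1 lower among the immediate early genes, and 0 for the mitochondrial synthetases, the efflux pumps and the mitochondrial genome (higher) and for the histone, interferon and autophagy lists (lower).

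AMO1 cells given the same dose for the same time provide a reference for a line without the resistance label. The AMO1 sample titles bear lower numbers than those of the 6 L363-CFZr libraries, with none shared, and what the numbers stand for is not given. Line, resistance and any library set that went with the line cannot be told apart. In AMO1 3975 of 10666 genes were called (37.3%) in a fit of their own, 1932 higher (18.1%) and 2043 lower (19.2%). Of the 1050 genes higher in L363-CFZr, 1012 were tested in AMO1, where 620 were higher and 10 lower. Of the 962 lower, 952 were tested, where 671 were lower and 6 higher. The 2 comparisons share no library. The difference between the effects was tested as an interaction over the 12 libraries and was called for 299 of 11044 genes (2.71%), 216 with a higher value in L363-CFZr (1.96%) and 83 with a lower one (0.752%). That number was 181 without L363-CFZr DMSO replicate 1 and 190 without AMO1 DMSO replicate 2.

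A number of ISR and amino acid genes had a larger effect in L363-CFZr. ATF4 changed by -0.22 on the log2 scale in AMO1 and by 0.90 in L363-CFZr (difference 1.10, SE 0.16, adjusted p = 0.00096). TRIB3 rose by 1.49 in AMO1 and by 3.08 in L363-CFZr (difference 1.58, SE 0.15, adjusted p = 8.78e-06). INHBE stood at 34.8, 31.8 and 35.5 CPM with DMSO and 96.5, 126 and 126 CPM with NCP26 in AMO1, on a scale set over all groups used, so that AMO1 had both the higher start and the lower end (difference 1.81). The differences were 2.17 for PSAT1, 2.05 for SESN2, 2.06 for CHAC1, 1.99 for CTH, 1.91 for EIF4EBP1 and 1.398 for ASNS. AMO1 had the higher mean with DMSO in each of these genes and in TRIB3. On the same scale it stood at 110.2 CPM in AMO1 against 52.7 CPM in L363-CFZr for PSAT1, 116.9 against 34.55 CPM for SESN2 and 13.4 against 3.54 CPM for CTH. With NCP26 the means of CTH were 35.5 CPM in AMO1 and 37.9 CPM in L363-CFZr. Those of SESN2 were 196 and 244.4 CPM, and those of PSAT1 236.4 and 517 CPM. The differences given are of the effect, and the levels with NCP26 were not tested between the lines. In the ISR core, of which 26 genes were tested in the main comparison, 9 differed between lines, against 2.71% of all genes in this test. DDIT3 did not pass this test (AMO1 1.86, difference 0.14, adjusted p = 0.722), nor did ATF3 (AMO1 2.92, difference -0.19, adjusted p = 0.769), nor EPRS1 (AMO1 0.29, difference 0.31, adjusted p = 0.296).

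Among p53 targets CDKN1A moved in opposite directions in the 2 lines. It stood at 441, 434 and 390.1 CPM with DMSO and 68.2, 69.2 and 68.7 CPM with NCP26 in AMO1, a fall, against a rise from a far lower level in L363-CFZr (difference 3.77, SE 0.20, adjusted p = 2.18e-08). In AMO1 1 of 19 p53 targets was called higher and 11 lower, against 18.1% and 19.2% of all genes tested in AMO1. The differences were 1.42 for MDM2, 1.73 for BBC3 and 1.45 for TNFRSF10B, the effect and not the level being higher in L363-CFZr. On the scale set over all groups used, MDM2 fell in AMO1 from 553.1, 515.2 and 591.2 CPM to 251.3, 261.2 and 244.7 CPM. In L363-CFZr it stood at 45.33, 57.18 and 50.68 CPM with DMSO and 60.41, 57.64 and 70.76 CPM with NCP26. BBC3 went from 68.31, 61.56 and 50.45 CPM to 37.56, 44.71 and 53.49 CPM in AMO1. In L363-CFZr it rose from 10.92, 12.74 and 7.83 CPM to 23.92, 26.62 and 26.88 CPM. GADD45B, a stress gene, had a difference of the other sign. It stood at 38.01, 32.6 and 33.3 CPM and 209, 191 and 213 CPM in AMO1 with DMSO and NCP26, and at 32.8, 30.6 and 32.8 CPM and 29.3, 39.4 and 28.7 CPM in L363-CFZr (difference -2.54). The histone gene H2BC11 went from 8.26, 9.11 and 12.4 CPM to 148, 139.6 and 146 CPM in AMO1 and from 6.23, 3.40 and 3.85 CPM to 6.27, 5.82 and 4.96 CPM in L363-CFZr (difference -3.51). In AMO1 9 of 9 replication-dependent histones were called higher, and 3 of 9 in L363-CFZr. Of all genes tested 18.1% were called higher in AMO1 and 9.81% in L363-CFZr, so the counts of the 2 fits are not on a par. MYC was lower after NCP26 in AMO1 (-1.08, adjusted p = 6.26e-06, difference 0.86). None of the differences given in the account of AMO1 as called was lost on leaving out any 1 of the 12 libraries.

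**Figure D3:**
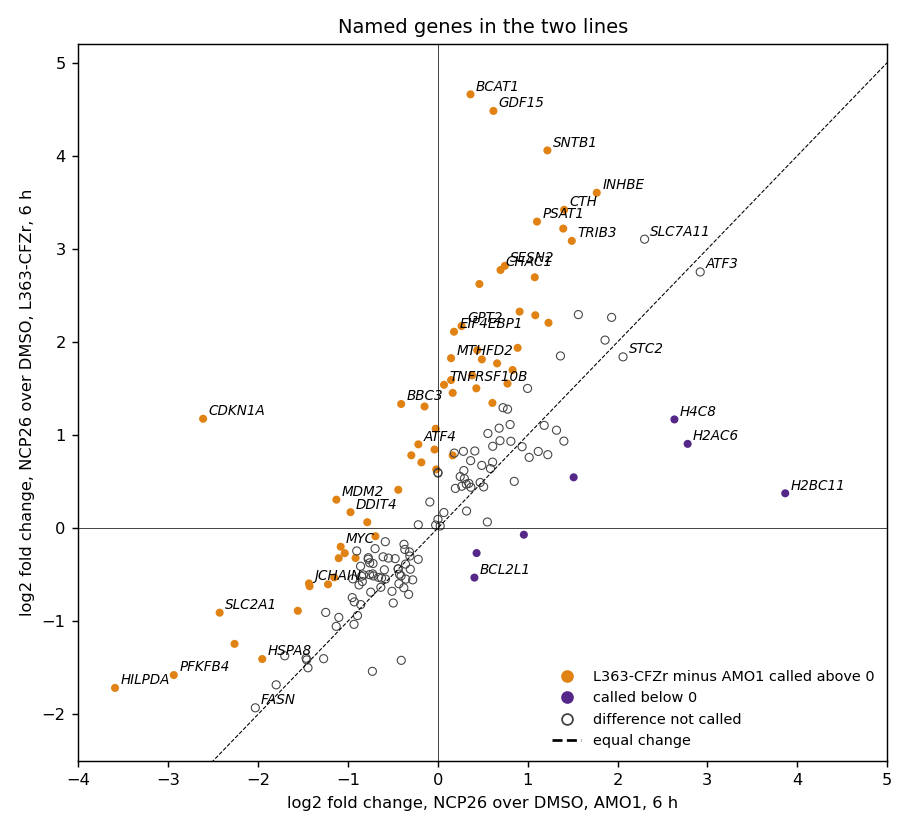
Log2 fold change of NCP26 against DMSO at 6 h in AMO1 (x axis) and L363-CFZr (y axis), 1 point per gene, with a dashed line of equal change. Genes named in the text are shown, but some, GADD45B among them, are not plotted. Orange points, such as TRIB3 and CDKN1A, were called with a higher value in L363-CFZr, purple points, such as H2AC6 and H2BC11, with a lower one, and open points were not called different.

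At 24 h NCP26 changed 757 of 10676 genes in L363-CFZr (7.09%), 289 higher (2.71%) and 468 lower (4.38%). DMSO replicate 2 of that time stood apart in some genes, on the scale set over all groups used. With DMSO at 24 h FASN stood at 476.1, 1037 and 438.4 CPM and GCN1 at 254.2, 527.1 and 254.4 CPM, but STC2 at 131.9, 129.4 and 118.8 CPM. Its part in these counts was not tested, so they do not measure the response against that at 6 h. The RNA-seq methods, which name AMO1 cells only, say that 24 h samples were kept on ice before extraction and 6 h samples were frozen overnight. Whether this held for L363-CFZr is not stated. The numbers that head the sample titles also start anew between the times without a stated meaning. Exposure time, any difference in storage and any library set therefore cannot be told apart. The effect differed between the times for 76 of 10992 genes (0.691%), 62 with a higher value at 6 h and 14 with a lower one. Single libraries decided this count. It was 5 without DMSO 6 h replicate 1, 8 without DMSO 6 h replicate 3 or NCP26 6 h replicate 1, 37 without DMSO 6 h replicate 2, 27 without NCP26 6 h replicate 3, between 15 and 30 without any 1 of the other 24 h libraries, and 404 without DMSO 24 h replicate 2. INHBE stood at 23.9, 17.8 and 17.1 CPM with DMSO and 166, 169 and 154 CPM with NCP26 at 24 h, and its effect was not called different (6 h minus 24 h 0.55, adjusted p = 0.347). HES6, a transcription factor, fell further at 24 h, from 28.5, 20.6 and 24.4 CPM to 3.57, 4.12 and 2.98 CPM (difference 2.11, adjusted p = 0.00498). ANGPTL4, a lipase inhibitor, was lower with NCP26 at 6 h (27.7, 30.6 and 28.8 CPM against 11.9, 12.9 and 11.2 CPM) and stood at 118, 80.7 and 98.1 CPM and 134, 134 and 107 CPM with DMSO and NCP26 at 24 h. These 2 differences held without any single library, which was not so for the other 13 of the 15 given for the times.

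NCP22 is the pyrazinamide from which NCP26 was developed, with a cyclohexyl group where NCP26 has a piperidinyl ring. The pair was given at the same dose of 1 µM for the same 6 h, and it is the 1 pair of compounds compared here. NCP26 and NCP22 libraries differed in 2177 of 10694 genes (20.4%), 1065 higher (9.96%) and 1112 lower (10.4%) with NCP26. The count was 862, 1170 and 1401 without NCP22 replicate 3, 1 and 2, 1289 without NCP26 replicate 1 and 3621 without NCP26 replicate 2. INHBE stood at 14.1, 19.2 and 10.9 CPM with NCP22 and 196, 181 and 176 CPM with NCP26 (difference 3.69, SE 0.17, adjusted p = 2.86e-07), and TRIB3 at 66.4, 59.3 and 63.96 CPM and 579, 677 and 553 CPM (difference 3.25, SE 0.12, adjusted p = 8.16e-08). Every NCP22 library was far below the NCP26 libraries in either gene. SNTB1 (4.02), ATF3 (3.24) and SLC7A11 (3.21) were higher with NCP26 and FASN (-2.14), CXCR3 (-1.97) and MAP1A (-1.82) lower. FEZF2 and DNMBP were called lower too, but at 5.57, 8.46 and 48.2 CPM and 10.8, 13.8 and 80.6 CPM with NCP22 they rested on NCP22 replicate 3, without which the adjusted p was 0.684 and 0.517. The numbers that head the sample titles start anew at that library, and what they stand for is not given in the sources used here. In the ISR core 19 of 26 genes were higher with NCP26 than with NCP22 and 1 lower.

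NCP22 against DMSO gave 0 called genes of 10235 (0%) in edgeR, with 666 at an unadjusted p under 0.05, and 1 in DESeq2, DDIT4 (log2 fold change -0.39, SE 0.067, adjusted p = 0.000104, DESeq2's Wald test). The 95% confidence interval of NCP22 over DMSO on the log2 scale was -0.57 to 0.39 for INHBE, -0.37 to 0.01 for TRIB3, -0.21 to 0.07 for ATF4, -0.80 to -0.22 for DDIT3 and 0.02 to 0.38 for FASN. The intervals are not adjusted for the number of genes, and those of DDIT3 and FASN did not include 0. None reached the NCP26 value of its gene, which does not show that NCP22 acted as DMSO. The comparisons with DMSO share the DMSO libraries, and those of NCP26 share the NCP26 libraries.

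**Figure D4:**
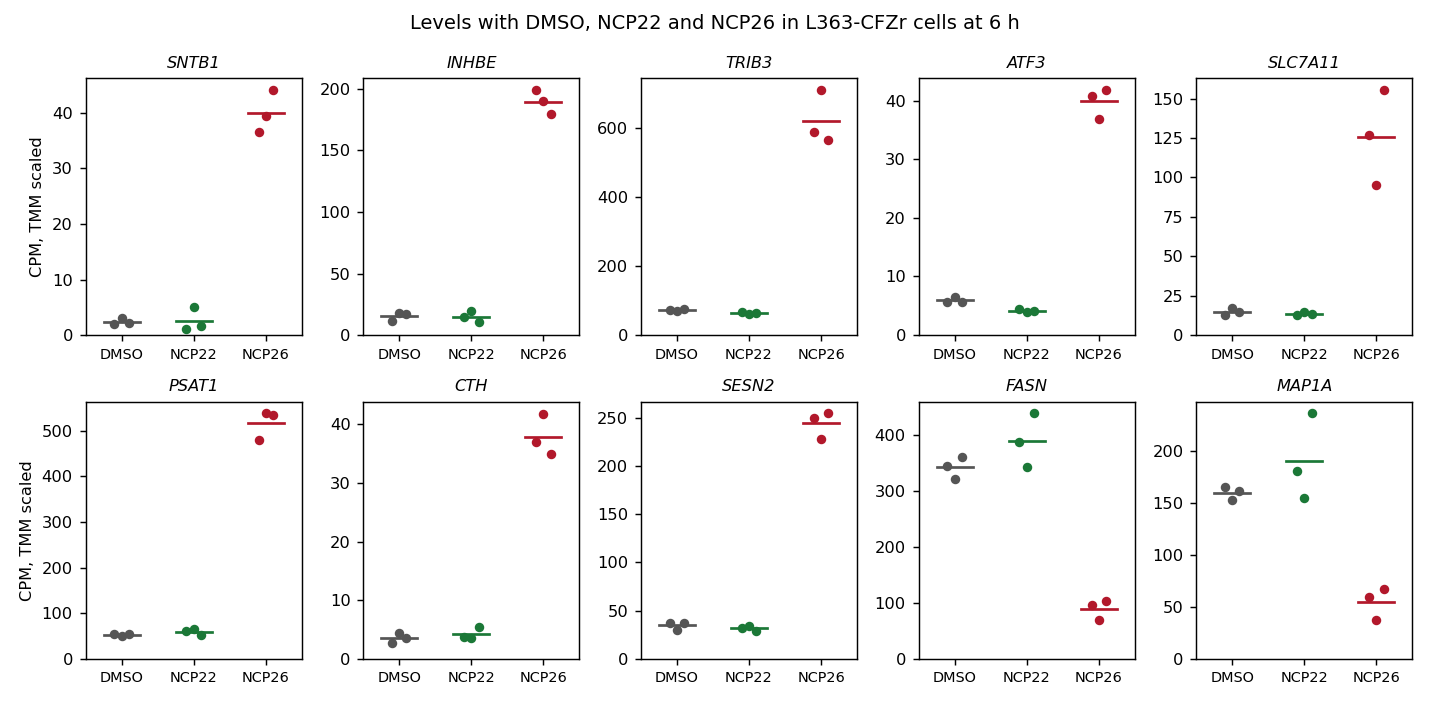
Level in CPM of 10 genes in L363-CFZr at 6 h with DMSO, 1 µM NCP22 and 1 µM NCP26, 1 point per library (3 per group). The NCP22 points of INHBE and TRIB3 lie beside the DMSO points and away from the NCP26 points.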

How the data were processed

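Cells were exposed to 1 µM compound or DMSO, at 1e6 per ml in RNA-seq methods that name AMO1 only. Stranded poly(A) libraries were sequenced in pairs. Per the labels and methods the authors quantified transcripts with kallisto and deposited whole-number counts per gene. The methods name GRCh38 and the submitters' processing notes hg19. The sources used here do not give the kallisto version, the annotation or how transcripts were summed to genes. kallisto shares reads between near-identical transcripts, so paralogues can exchange counts.

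Groups came from the sample labels. Counts were filtered with filterByExpr (minimum count 10, minimum total 15), scaled by TMM and tested with edgeR 4.0.16 (quasi-likelihood, Benjamini-Hochberg threshold 0.05, R 4.3.3) over the 6 libraries. Differences between lines and times were interaction terms over 12 libraries. Alternatives were DESeq2 1.42.0 (size factors, Wald test), no filter, a replicate block, offsets from lowess trends on GC content (span 0.3) and then length, all 6 h groups, and each library left out. GC content and positions were matched by gene identifier to GENCODE v44 (19299 of 20167 genes). Promoters came from RefSeq, matched by symbol, and shared 31-base words from GENCODE transcripts. No pair of libraries was identical (smallest chi-square per degree of freedom 1.74). Scripts were tested on simulated data.

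Named genes were the 12 largest changes each way among called genes at 5 CPM or more without overlap, up to 6 members of each of 29 gene lists by size of change (every member of some short lists) and the study's targets, with the 5 largest each way for the other comparisons. A few members of counts of 5 or fewer, and IRF1 and others named beyond this, were chosen after their values were seen. The genes and lists were chosen with earlier results of these data known. Columns of the authors' own comparisons were not used. A few genes that the rule would name are not reported here.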

Additional observations from a re-analysis of the deposited data

Results flagged for a closer look

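The effect of NCP26 at 6 h differed between L363-CFZr and AMO1 by the test of the interaction itself (edgeR, 12 libraries) in 299 genes. The values that follow are differences of log2 fold changes, L363-CFZr minus AMO1. They cover genes named by rule and others, such as IRF1, chosen after their values were seen. In the ISR core the differences were GDF15 3.79, CHAC1 2.06, SESN2 2.05, EIF4EBP1 1.91, INHBE 1.81, TRIB3 1.58, DDIT4 1.13, ATF4 1.10 and EIF2AK3 -0.72. In amino acid synthesis they were BCAT1 4.26, PSAT1 2.17, CTH 1.99, GPT2 1.89, MTHFD2 1.66, ASNS 1.398, PHGDH 1.305, PSPH 1.18, SHMT2 1.07 and ALDH1L2 1.03, with PYCR1 0.63 and P4HA1 0.59 among proline genes. Transporters gave SLC6A9 1.803, SLC43A1 1.45, SLC7A5 1.43, SLC1A5 1.09, SLC7A1 1.05 and SLC38A5 0.58, and synthetases and a translation factor gave WARS1 1.24, GARS1 0.85, CARS1 0.76, TARS1 0.72 and EIF3B 0.60. Genes of death, p53 and the cell cycle gave CDKN1A 3.77, BBC3 1.73, TNFRSF10B 1.45, FAS 1.43, MDM2 1.42, GADD45A 1.27, PMAIP1 0.96, BCL2 0.87, CCNB2 0.83, BCL2L11 0.83, MCM6 0.60 and BCL2L1 -0.96. Histone genes lay on the other side, at H2BC11 -3.51, H2AC6 -1.89, H4C8 -1.49 and H1-2 -0.98. Metabolic genes gave HILPDA 1.86, SLC2A1 1.502, PFKFB4 1.34, PFKFB3 1.002, HMGCS1 0.75 and PGK1 0.65, and HSPA8, a heat shock gene, 0.53. Plasma cell genes gave MYC 0.86, JCHAIN 0.82, POU2AF1 0.78, IRF4 0.76, PIM2 0.61 and SLAMF7 -1.04. The metabolic genes, HSPA8, SLC38A5, P4HA1, EIF3B and the plasma cell genes other than SLAMF7 had values below 0 in L363-CFZr. For them a difference above 0 means a smaller fall in L363-CFZr than in AMO1. HILPDA, for one, went from a mean of 87.4 to 7.11 CPM in AMO1 and from 49.8 to 15.1 CPM in L363-CFZr. DDIT4, BCL2L11 and MDM2 were not called in L363-CFZr with all 6 libraries, so that their differences do not stand for a called rise there. ATF4 had a value below 0 in AMO1. The remaining values were SNTB1 2.82, GAS7 2.14, NIBAN1 1.599, IRF1 1.05, WIPI1 0.86, HES1 -2.88, GADD45B -2.54 and DUSP8 -2.28. EDA2R gave 5.901 and KCNMB4 5.00, but both were at 0 CPM in the 3 L363-CFZr DMSO libraries, so that these values are no bound. GDF15 and BCAT1 gave 0 to 2 counts in the L363-CFZr DMSO libraries, so that theirs are no bound either, and they lay at 3.13 to 5.72 and 3.5 to 5.21 without single libraries. ENSG00000269339 gave -13.8, with 0 CPM in the AMO1 DMSO libraries and 1402, 10.8 and 454 CPM in the AMO1 NCP26 libraries, and 554, 992 and 2388 CPM with DMSO in L363-CFZr.

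Of 72 such differences 19 were not called when 1 of the 12 libraries was left out, with an adjusted p of 0.0513 to 0.151 at most. They were those of SLC38A5, PYCR1, P4HA1, CARS1, EIF3B, HSPA8, PMAIP1, FAS, BCL2, GADD45A, MCM6, PIM2, HMGCS1, H4C8, H1-2, EDA2R, KCNMB4, DUSP8 and HES1.

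The effect of NCP26 in L363-CFZr differed between 6 h and 24 h, again by the interaction, in 76 genes. Differences of log2 fold changes, 6 h minus 24 h, were AKAP12 3.27, LY6H 2.29, FGFR4 2.22, HES6 2.11, RRM2 1.195, MCM10 1.05 and MCM6 0.91 on the higher side. The means of AKAP12, LY6H, FGFR4 and HES6 were lower with NCP26 at both times, so that their values mean a smaller fall at 6 h. AKAP12 stood at 0.65, 0.97 and 0 CPM with NCP26 at 24 h, and its value is no bound. On the lower side they were ANGPTL4 -1.61, KCNN3 -1.603, PFKFB4 -1.22, FTH1 -1.14, CHPF2 -0.95, WARS1 -0.95, SLC2A1 -0.87 and PPP1R15A -0.70. Those of HES6 and ANGPTL4 stayed under 0.05 without any 1 library (adjusted p at most 0.0277 and 0.0492). The part of storage, which the methods give as differing with time for AMO1, was not tested.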

How the results depend on the processing

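With size factors of DESeq2, DESeq2's Wald test, no filter on low counts or offsets for GC content and length (the last chosen after seeing the data) the number of genes called in the main comparison was 2039, 1658, 2368 and 2356, against 2012. It was 1340 with the GC content offset, 3382 with all 6 h groups of L363-CFZr in 1 fit, and 753 to 3961 when single libraries were left out, the higher value without NCP26 replicate 2. The difference between lines (299) was called for 539 genes with no filter, 302 to 409 under the size factors, the Wald test or the GC offset, and 181 to 404 without single libraries. For the difference between times (76) the Wald test gave 192 (124 higher, 68 lower, against 62 and 14), other settings 68 to 93, and leaving out single libraries 5 to 404. NCP26 against NCP22 (2177) gave 3654 with all 6 h groups, 862 to 3621 without single libraries, and 1544 to 2630 elsewhere. The causes were not tested.

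The replicate numbers were also fitted as a block, although the labels do not say that they pair the samples. Deviations of same-numbered DMSO and NCP26 libraries correlated at 0.014, -0.19 and -0.23, and DMSO replicate 1 was the only library that correlated best with its own number. These correlations cannot show whether same-numbered libraries were handled together, because the trends with GC content and length also enter them. The replicate block gave 958, 139, 0 and 2077 calls for the main comparison, lines, times and NCP22 (940 genes at an unadjusted p under 0.05 for times, edgeR), and ended 37 of 153 calls of named genes.

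Of 180 genes named with values 153 were called. The Wald test ended 12 of these calls, no filter 5, the GC offset 24, the GC and length offsets 10, and leaving out single libraries 0 to 49. Signs turned only among genes not called: AURKB at -0.0075 with the block and -0.33 to 0.19 without single libraries, ATF5 at 0.026, EIF2AK2 at -0.058 and ABCB1 at -0.0028 with the GC offset, EIF2AK2 at -0.033 and TCF3 at 0.0026 with the GC and length offsets, XBP1 at -0.087 to 0.073, EIF2AK1 at -0.0089 to 0.10 and EIF2AK4 at -0.013 to 0.22 without single libraries. Depth of 3030772 counts or more per library limited genes of few counts, 9466 of 20167 being left untested.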
